A study of Mus musculus with 20 samples.

Results

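The 10 genes described here make, activate, receive or limit the signal of transforming growth factor beta (TGF-beta): Tgfb1, Itgb8, Tgfbr1, Tgfbr2, Tgfbr3, Smad2, Smad3, Smad7, Ski and Skil. They were chosen by symbol. All 10 were found among the 16740 genes of the count table from spleen and peripheral lymph nodes (pLNs) and among the 16784 genes of the count table from mesenteric lymph nodes (mLN). RNA was sequenced from 20 libraries of T cells sorted from C57BL/6 mice at 14 weeks of age. DKO mice were Tet2/3 fl/fl, that is, homozygous for Tet2 and Tet3 alleles with loxP sites, and carried Foxp3Cre, a YFP-Cre fusion knocked into the Foxp3 gene, so that both alleles of both genes are removed in cells that have expressed Foxp3, and WT mice carried Foxp3Cre without these alleles. From these mice CD4+Foxp3+ regulatory T (Treg) cells were taken as CD4+YFP+ cells and CD4+Foxp3- cells as CD4+YFP- cells, a gate that also takes cells that have lost Foxp3. Spleen and pLNs, pooled, gave 2 libraries for each of the 4 groups of genotype and cell type, and mLN gave 3. The study calls them biological replicates, and in spleen and pLNs both DKO cell types came from the same pair of littermates. These littermates differed in how far the spleen was enlarged, and the labels do not say which libraries came from which mouse.

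TGF-beta1 is secreted inside a latent complex and has to be released before it can act, which on Treg cells is done mainly by the integrin alphaV beta8, whose beta chain Itgb8 encodes. Active TGF-beta binds the type II receptor (Tgfbr2), which phosphorylates the type I receptor (Tgfbr1, also called ALK5); the type I receptor in turn phosphorylates SMAD2 and SMAD3, which enter the nucleus with SMAD4 and bind DNA. The betaglycan co-receptor (Tgfbr3) presents the ligand, the inhibitory SMAD7 shuts the type I receptor off, and the co-repressors SKI and SNON (Skil) hold SMAD complexes silent. In T cells the pathway restrains effector responses, helps induce Foxp3 outside the thymus and drives the integrin CD103 (Itgae) that holds lymphocytes in epithelia.

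Libraries held between 13525932 and 15253141 counts in spleen and pLNs and between 9998478 and 15449158 counts in mLN, and 3 counts were worth at most 0.299 CPM (the count scaled to a common library size). Levels are CPM after TMM normalization. Tet2 stood at 1.11 to 2.08 CPM in WT Treg cells of spleen and pLNs against 2.05 to 8.01 CPM in DKO ones, and at 10.4 to 10.8 and 7.69 to 12.8 CPM respectively in mLN. These are counts over the whole gene, which take in the exons that the alleles keep, so they do not check the genotype. Foxp3 reached 153 to 165 and 235 to 419 CPM in the WT and DKO Treg libraries of spleen and pLNs, 299 to 326 and 277 to 329 CPM in those of mLN, and no more than 2.75 CPM in any CD4+Foxp3- library. The summed level of 4 Treg markers (Foxp3, Il2ra, Ctla4 and Ikzf2) was 1657 to 1832 CPM in WT and 1157 to 1492 CPM in DKO Treg libraries of mLN, without overlap, and 1 of the 4, Il2ra, was called lower. The DKO libraries numbered 2 in mLN stood apart. The summed level of 3 plasma cell markers was 564 CPM in that Treg library and 645 CPM in that CD4+Foxp3- library, against 77.2 to 123 CPM in the other WT Treg, DKO Treg and DKO CD4+Foxp3- libraries of mLN and 61.1 to 71.1 CPM in WT CD4+Foxp3- libraries. The DKO libraries numbered 1 stood apart in spleen and pLNs, where the summed level of the 4 Treg markers was 558 CPM in CD4+Foxp3- cells of DKO replicate 1 and 127 CPM in those of DKO replicate 2. Ctla4 and Ikzf2 made most of the 558 CPM, with 344 and 178 CPM. Foxp3 stood at no more than 0.741 CPM and Il2ra at no more than 36.2 CPM in either library. Both NK cell markers (Ncr1 and Klrb1c) had a summed level of 5.21 to 8.19 CPM in WT and of 72.4 to 156 CPM in DKO Treg libraries of mLN, and of 6.13 to 7.38 CPM in WT and 88.7 to 113 CPM in DKO Treg libraries of spleen and pLNs. The summed level of 6 myeloid markers was 1.41 to 3.37 CPM in WT and 3.51 to 43.9 CPM in DKO Treg libraries of mLN. In Treg libraries of spleen and pLNs it was 1.46 to 2.58 CPM in WT and 9.42 to 23.1 CPM in DKO. Csf1r and Itgam were called higher there, as was the B cell marker Ms4a1, while Cd79b was called lower. Other summed levels were lower. In Treg libraries of mLN that of both CD8 T cell markers was 16.03 to 20.8 CPM in WT and 2.95 to 3.94 CPM in DKO, with Cd8b1 called lower. That of 5 B cell markers was 26.8 to 35.4 CPM in WT and 8.81 to 20.8 CPM in DKO, with Cd79b called lower and Pax5 higher. The median log2 fold change of these 5 was 2.27, so the lower sum did not stand for most of them. The part of the marker differences in the values below was not tested.

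In Treg cells of mLN most of the 10 genes differed between genotypes. Of the 10, 1 gene, Itgb8, was higher in DKO than in WT Treg cells of mLN and 6 were lower, namely Tgfbr1, Tgfbr2, Tgfbr3, Smad7, Ski and Skil, while Tgfb1, Smad2 and Smad3 did not pass the test. A gene was called where edgeR's quasi-likelihood test gave an adjusted p of at most 0.05 and the change was at least 1.5-fold. Over all 16784 genes tested in that comparison 8.50% were called higher and 3.43% lower. The median log2 fold change of the 10 genes was -0.75, and that of all genes was 0.00. Without both DKO libraries numbered 2, 6 of the 10 were called, Ski no longer among them. Without WT Treg replicate 2 or 3, or DKO Treg replicate 1, only Tgfbr1, Ski and Skil were called. A robust prior left Itgb8, Tgfbr1, Ski and Skil. With library totals in place of TMM, which moved the median log2 fold change of all genes to 0.12 and the share of called genes that were higher from 71.3% to 80.7%, 4 were called, Itgb8 higher and Tgfbr1, Ski and Skil lower. In bulk samples fewer cells of a type and less RNA per cell cannot be told apart.

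In the other comparisons fewer of the 10 genes passed. In Treg cells of spleen and pLNs 1 of the 10, Tgfbr3, was lower in DKO and 0 were higher, where 1.14% of all genes were called higher and 0.605% lower. In CD4+Foxp3- cells of mLN 1 of the 10, Itgb8, was higher in DKO and 0 were lower, against 3.12% of all genes called higher and 0.304% lower. In CD4+Foxp3- cells of spleen and pLNs 0 of the 10 were called by edgeR and 0 by DESeq2, where 0.770% and 0.0489% of all genes were called higher and lower by edgeR; 2 of the 10 had an unadjusted p under 0.05, and without DKO CD4+Foxp3- replicate 2, which leaves DKO replicate 1 alone in its group, 5 of the 10 were called, as were 1566 genes higher and 1185 lower of 16279 tested. Between cell types, 2 of the 10 were higher and 1 lower in WT Treg than in WT CD4+Foxp3- cells in either tissue, Itgb8 and Tgfbr1 on the higher side and Tgfbr3 on the lower. The background in WT was 2.48% higher and 1.52% lower in spleen and pLNs, and 6.91% higher and 3.14% lower in mLN. In DKO cells the counts were 1 higher and 1 lower in spleen and pLNs (background 2.16% and 1.61%) and 2 higher and 3 lower in mLN (background 7.75% and 3.49%).

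**Figure D1:**
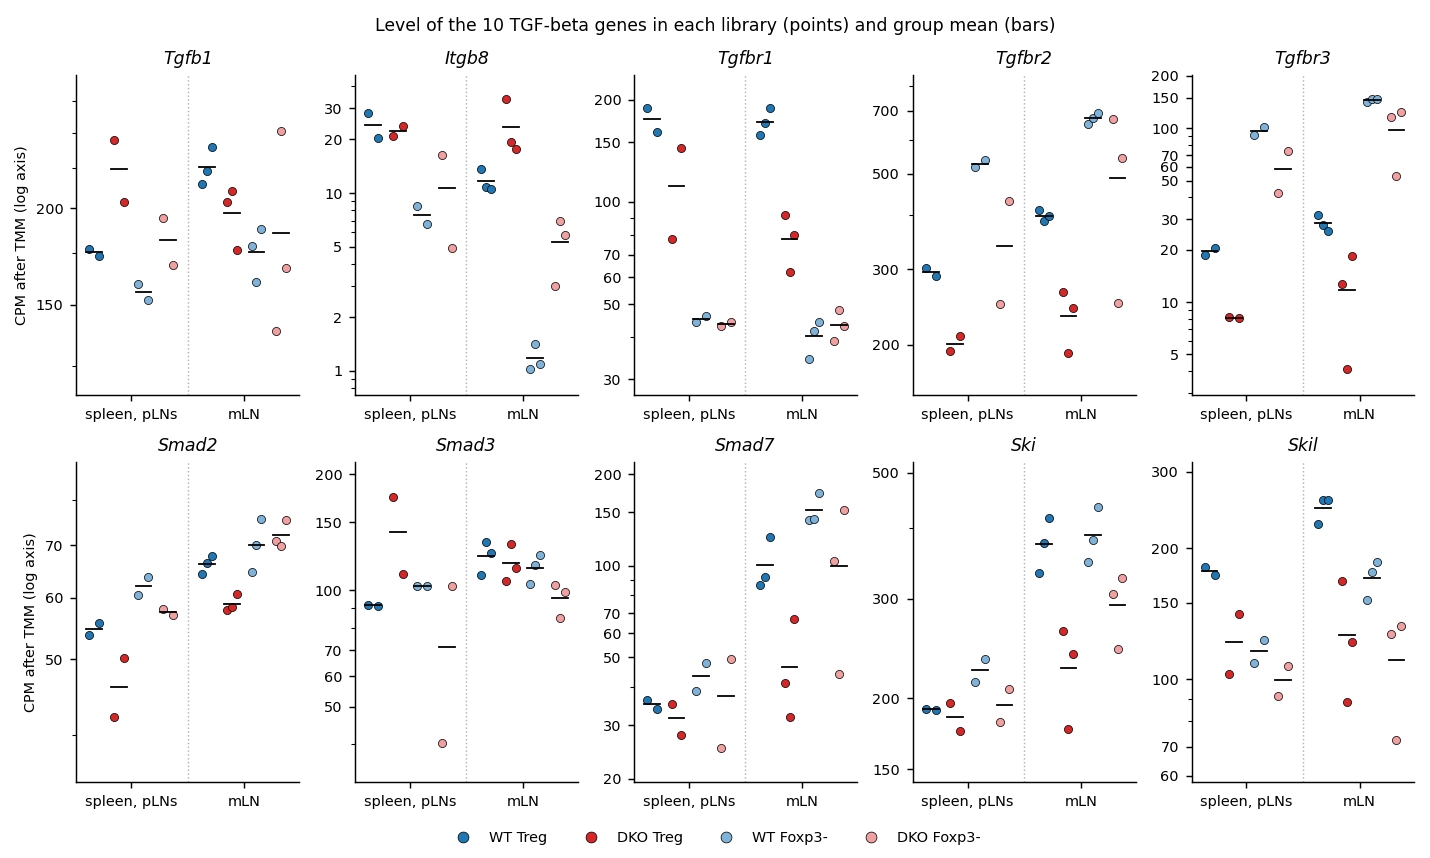
Level of each of the 10 genes as CPM after TMM normalization (log axis) in each library, with points for libraries and bars for group means, spleen and pLNs left and mLN right of the dotted line. Tgfbr1 lies between 62.0 and 91.7 CPM in the 3 DKO Treg libraries of mLN and between 158 and 189.6 CPM in the WT ones, and Itgb8 lies higher in the DKO than in the WT Treg libraries of mLN.

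Per transcript length, the deposited TPM of mLN put the ligand and the type II receptor at the top and the integrin chain at the bottom of the WT Treg cells. Tgfb1 had 197 ± 16.8 TPM (mean ± SD, n = 3), Tgfbr2 152 ± 3.38 TPM and Ski 125 ± 17.7 TPM. Next came Skil with 64.2 ± 6.45, Tgfbr1 with 55.7 ± 6.80, Smad3 with 44.1 ± 5.42 and Smad7 with 41.6 ± 9.57 TPM, and each of these 4 overlapped its neighbour within 1 SD of both means. Tgfbr3 with 8.54 ± 0.598 and Itgb8 with 6.84 ± 0.765 TPM were the lowest. Smad2 had 13.2 ± 0.752 TPM, but its place in the order depends on the length used for it. In WT CD4+Foxp3- cells Tgfbr2 stood first at 236 ± 12.2 TPM, above Tgfb1 at 141 ± 10.6 TPM, and Itgb8 last at 0.640 ± 0.127 TPM. In DKO Treg cells Itgb8, at 15.9 ± 6.55 TPM, was above Tgfbr3, at 4.03 ± 2.47 TPM. TPM of both tables were not compared, since counts over TPM give Smad2 a length that was 3.64 times as large for mLN as for spleen and pLNs, and that of Skil also differed, while the other 8 genes had the same implied length. With the shorter length Smad2 would stand higher in the order of mLN.

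**Figure D2:**
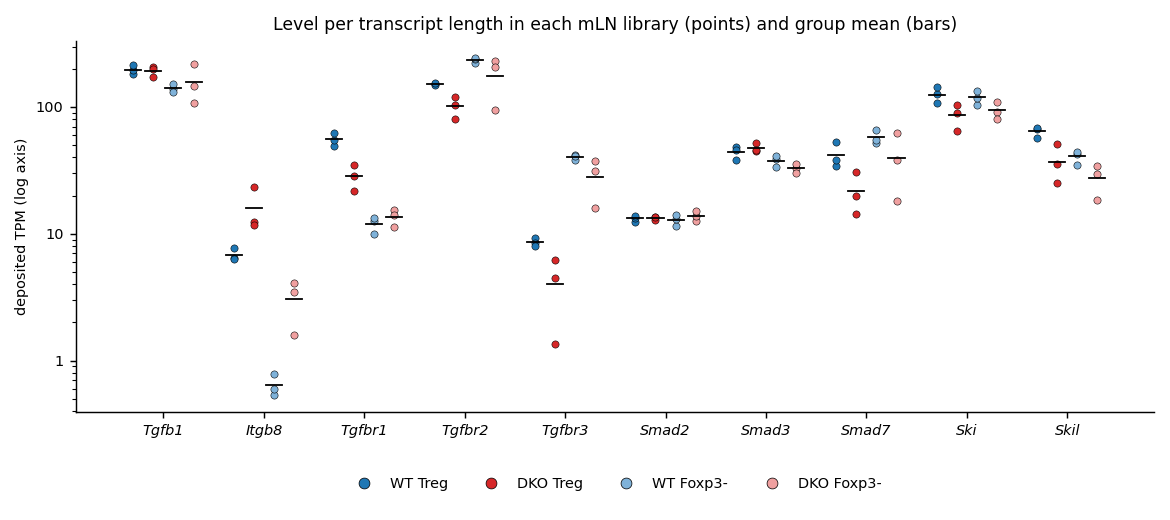
Deposited TPM (log axis) of the 10 genes in the 12 mLN libraries, with points for libraries and bars for group means. Tgfb1, Tgfbr2 and Ski are the 3 highest in WT Treg cells, Itgb8 is the lowest in both WT groups, and the order holds within this table only.

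The ligand gene Tgfb1 (chr7:26472021-26490096 on NCBIM37, the assembly of mm9, plus strand) passed the test in none of the 10 comparisons. It had 215, 223 and 239.8 CPM in the 3 WT Treg libraries of mLN and 204, 210.3 and 177 CPM in the DKO ones. Each DKO value was under each WT value, by a log2 fold change of -0.20 ± 0.17 (SE, adjusted p = 0.451). The order was the other way in spleen and pLNs, with 177 and 173 CPM in WT against 245 and 204 CPM in DKO Treg cells and a log2 fold change of 0.36 ± 0.16 (SE, adjusted p = 0.229). CD4+Foxp3- cells of mLN held 179, 160.5 and 188 CPM in WT compared with 139, 251 and 167 CPM in DKO and overlapped. Their log2 fold change of 0.08 became -0.21 without both DKO libraries numbered 2. In WT Treg against CD4+Foxp3- cells the log2 fold change was 0.36 ± 0.17 (SE, adjusted p = 0.178) in mLN.

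Itgb8 (chr12:120396495-120477275, minus strand), the activating integrin chain, marked Treg cells and rose in the DKO cells of mLN. WT Treg libraries of mLN held 13.6, 10.8 and 10.5 CPM and DKO Treg libraries 33.8, 19.3 and 17.7 CPM. All 3 DKO libraries were above all 3 WT libraries, DKO replicate 1 highest, and the log2 fold change was 1.02 ± 0.28 (SE, adjusted p = 0.0235). Without DKO Treg replicate 1 it was 0.67 (adjusted p = 0.113), and without WT Treg replicates 2 or 3 the adjusted p was 0.0882 and 0.0922, so that each of these 3 libraries decided the call. CD4+Foxp3- libraries of mLN held 1.02, 1.42 and 1.10 CPM in WT against 3.02, 6.97 and 5.83 CPM in DKO. The lowest DKO value was over the highest WT value, the log2 fold change was 2.14 ± 0.36 (SE, adjusted p = 0.00893), and the call was lost without WT CD4+Foxp3- replicates 1 or 2 (adjusted p = 0.0586 and 0.053) and with only those 2 groups in the fit (adjusted p = 0.0848). Beside this, the summed level of the 4 Treg markers in CD4+Foxp3- libraries of mLN was 66.1 to 76.0 CPM in WT and 106 to 226 CPM in DKO, with Foxp3 itself at 1.35 to 1.62 CPM in WT compared with 0.211 to 2.75 CPM in DKO. In the same libraries both NK cell markers had a summed level of 6.47 to 12.7 CPM in WT and 30.9 to 136 CPM in DKO, and both CD8 T cell markers 21.5 to 23.3 CPM in WT and 4.996 to 10.1 CPM in DKO, with Klrb1c called higher and Cd8b1 lower. Dendritic cells also express Itgb8. The summed level of 6 dendritic cell markers was 2.71 to 3.25 CPM in WT and 3.78 to 9.78 CPM in DKO Treg libraries of mLN and 2.70 to 3.29 and 2.21 to 2.67 CPM in WT and DKO CD4+Foxp3- libraries. Of these markers Clec9a was at 0 in every Treg library of mLN, Itgax in every WT one and Flt3 in every DKO one. Itgax and Zbtb46 were called higher and Xcr1 lower in DKO Treg cells of mLN, and Zbtb46 higher and Xcr1 lower in DKO CD4+Foxp3- cells. The part of these markers in the rise was not tested. The effects of genotype in Treg and in CD4+Foxp3- cells differed by a log2 value of -1.12 ± 0.46 (SE, adjusted p = 0.38), which missed the threshold.

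Itgb8 separated the cell types more than any other of the 10 genes in WT mLN. The log2 fold change of Treg over CD4+Foxp3- cells was 3.28 ± 0.35 (SE, adjusted p = 5.62e-05) in WT and 2.15 ± 0.30 (SE, adjusted p = 0.000359) in DKO. Libraries of spleen and pLNs had for Itgb8 28.2 and 20.3 CPM in WT Treg, 20.9 and 23.9 CPM in DKO Treg, 8.43 and 6.67 CPM in WT CD4+Foxp3- and 16.4 and 4.89 CPM in DKO CD4+Foxp3- cells. There the genotypes overlapped in both cell types and the log2 fold change in Treg cells was -0.11 ± 0.39 (SE, adjusted p = 0.926). DKO CD4+Foxp3- replicate 1, the library with 558 CPM of Treg markers, mostly Ctla4 and Ikzf2, was the high one: the log2 fold change in CD4+Foxp3- cells was 0.51 ± 0.42 (SE, adjusted p = 0.702) with it and -0.63 without it. The excess in WT Treg over WT CD4+Foxp3- cells of spleen and pLNs was 1.68 ± 0.42 (SE, adjusted p = 0.0438) and was called under 3 of the 8 other settings of the test and in 3 of 9 fits with libraries left out, not with genotype and replicate number as a block (adjusted p = 0.162).

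By its levels over the 12 mLN libraries, Itgb8 was most like Anxa4, Bicd1 and Cass4, with Pearson r of 0.988, 0.986 and 0.982 between log2 CPM values, the highest among the 9465 genes whose mean reached 5 CPM. These libraries share tissue, cell type and genotype groups, so the likeness describes the group pattern and carries no test.

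The type I receptor gene Tgfbr1 (chr4:47366094-47427803, plus strand) had the smallest adjusted p of the 10 in DKO against WT Treg cells of mLN. It had 158, 171 and 189.6 CPM in WT against 91.7, 62.0 and 79.8 CPM in DKO Treg libraries of mLN. The highest DKO library was below the lowest WT library, and the log2 fold change was -1.15 ± 0.14 (SE, adjusted p = 0.000235), a level 2.22-fold lower. It was called under all 7 other settings and in all 13 fits with libraries left out. CD4+Foxp3- libraries of mLN held 34.5, 41.7 and 44.3 CPM in WT compared with 39.0, 48.1 and 43.1 CPM in DKO, overlapping, with a log2 fold change of 0.11 ± 0.14 (SE, adjusted p = 0.706). The effects in both cell types differed by -1.26 ± 0.20 (SE, adjusted p = 0.0187), and Tgfbr1 was the 1 gene of the 10 called for this interaction, where 0.119% of all genes were called higher and 0.161% lower. In spleen and pLNs, where 0% and 0.00611% were called, 0 of the 10 passed the interaction test by edgeR and 0 by DESeq2, and 1 had an unadjusted p under 0.05. The mLN interaction lost its call without WT Treg replicates 2 or 3 (adjusted p = 0.0603 and 0.0858) or WT CD4+Foxp3- replicates 1 or 2 (adjusted p = 0.065 and 0.0582).

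Tgfbr1 in spleen and pLNs had 189.8 and 161 CPM in WT Treg and 78.0 and 145 CPM in DKO Treg cells. Both DKO libraries were below both WT libraries, replicate 1 by much more than replicate 2, and the log2 fold change of -0.65 ± 0.23 (SE, adjusted p = 0.142) did not pass. Over the other settings and the fits with libraries left out it lay between -1.17 and -0.27. CD4+Foxp3- cells there held between 43.0 and 46.0 CPM in either genotype. Treg cells had more Tgfbr1 than CD4+Foxp3- cells in both genotypes and both tissues: the log2 fold change was 2.10 ± 0.14 (SE, adjusted p = 1.51e-06) in WT and 0.84 ± 0.14 (SE, adjusted p = 0.00127) in DKO mLN, and 1.96 and 1.35 in WT and DKO spleen and pLNs (adjusted p = 0.000631 and 0.00661). The DKO call in spleen and pLNs was lost with genotype and replicate number as a block (adjusted p = 0.0598) and with these 2 groups alone (adjusted p = 0.0746).

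The type II receptor gene Tgfbr2 (chr9:115993415-116084383, minus strand) was lower in DKO than in WT Treg cells of mLN, and its level between cell types had the opposite order to that of Tgfbr1. WT Treg libraries of mLN held 412, 389 and 398 CPM and DKO Treg libraries 266, 191 and 244 CPM. The groups did not overlap and the log2 fold change was -0.77 ± 0.25 (SE, adjusted p = 0.0465), a call close to the threshold that held under 4 of 7 other settings and 3 of 13 fits with libraries left out; without both DKO libraries numbered 2 it was -0.64 (adjusted p = 6.37e-05). CD4+Foxp3- libraries held more, 653, 674 and 694 CPM in WT against 672, 249.7 and 543 CPM in DKO. DKO CD4+Foxp3- replicate 2, the library with 645 CPM of plasma cell markers, was far under the other DKO libraries, and the log2 fold change over all was -0.46 ± 0.25 (SE, adjusted p = 0.345). With other settings or libraries left out it lay between -0.76 and -0.14, called only without DKO CD4+Foxp3- replicate 1 (adjusted p = 0.0495). Between cell types of WT mLN, where each Treg library was under each CD4+Foxp3- library, the log2 fold change was -0.75 ± 0.25 (SE, adjusted p = 0.0604), and with genotype and replicate number as a block the adjusted p was 0.00954. In DKO mLN it was -1.06 ± 0.25 (SE, adjusted p = 0.0106), although DKO CD4+Foxp3- replicate 2 lay inside the range of the DKO Treg libraries, and with these 2 groups alone the adjusted p was 0.0965. For Tgfbr2, spleen and pLNs gave 301 and 289 CPM in WT Treg, 193 and 209 CPM in DKO Treg, 517 and 537 CPM in WT CD4+Foxp3- and 249 and 431 CPM in DKO CD4+Foxp3- cells. The DKO values were under the WT values in both cell types, without passing the test (log2 fold change -0.55 ± 0.22 SE, adjusted p = 0.188 in Treg cells).

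TET proteins oxidize methylated cytosines at CpG dinucleotides. The stretches before the starts of Tgfbr1 and Tgfbr2 are shown as those of the signalling receptors, 250 bases 5′ to 3′ from RefSeq (GRCm38.p6), with each CpG in capitals. Both matched NCBIM37 at 1 place. The Tgfbr1 stretch is chr4:47365844-47366093, plus strand, and the Tgfbr2 stretch is chr9:116084482-116084731, minus strand; neither overlaps an exon of its gene in GENCODE M1.
Tgfbr1: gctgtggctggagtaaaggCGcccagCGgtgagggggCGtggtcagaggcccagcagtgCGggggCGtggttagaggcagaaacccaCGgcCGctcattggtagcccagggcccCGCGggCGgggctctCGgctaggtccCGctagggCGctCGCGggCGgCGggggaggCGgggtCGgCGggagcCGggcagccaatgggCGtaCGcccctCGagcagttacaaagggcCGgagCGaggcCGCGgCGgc
Tgfbr2: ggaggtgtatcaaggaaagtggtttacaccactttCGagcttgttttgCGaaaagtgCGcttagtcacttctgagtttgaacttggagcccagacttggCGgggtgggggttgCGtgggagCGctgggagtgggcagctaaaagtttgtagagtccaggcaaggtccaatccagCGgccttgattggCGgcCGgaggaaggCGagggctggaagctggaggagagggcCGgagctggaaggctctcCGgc
RefSeq lists a second start of Tgfbr1, whose stretch (chr4:47398838-47399087, inside the gene) is not shown and holds 3 CpGs, as many as or more than 37.8% of all stretches, and 1 CAGAC motif. The Tgfbr1 stretch shown holds 29 CpGs and the Tgfbr2 stretch 12, against a median of 6 over 32851 such promoter stretches, of which 94.1% and 68.5% hold as many or fewer. Of the other members matched, and by their change in DKO Treg cells of mLN, Itgb8, which rose, holds 12 CpGs, Tgfb1 and Smad3, which were not called, hold 21 and 22, and Ski, which fell, holds 53. Unlike those of Tgfb1 and Smad3, the stretches of Itgb8 and Ski overlap exons of their genes in GENCODE M1. For Smad2 and Smad7 no match was tried, and Tgfbr3 and Skil had no promoter stretch to match. The SMAD motif CAGAC, on either strand, occurs 0 times in the Tgfbr1 stretch shown and 1 time in the Tgfbr2 stretch, where 42.2% of all stretches hold it. The longer palindrome GTCTAGAC occurs in neither and in 0.167% of all. Methylation was not measured in these files.

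Tgfbr3 (chr5:107535589-107718648, minus strand), which encodes betaglycan, was lower in Treg than in CD4+Foxp3- cells in both tissues and both genotypes, and lower in DKO than in WT Treg cells. In mLN it had 31.5, 27.9 and 25.8 CPM in WT Treg and 12.8, 4.10 and 18.5 CPM in DKO Treg libraries. The groups did not overlap, DKO replicate 2 was far the lowest, and the log2 fold change was -1.28 ± 0.40 (SE, adjusted p = 0.0376). Without both DKO libraries numbered 2 it was -0.87 (adjusted p = 8.98e-05), and the call was lost with library totals (adjusted p = 0.055), with a robust prior (adjusted p = 0.0971) and without each of 6 single libraries, all 3 of WT Treg, DKO Treg replicates 1 and 2, and WT CD4+Foxp3- replicate 2 (adjusted p up to 0.11). Spleen and pLNs gave 18.7 and 20.5 CPM in WT compared with 8.19 and 8.06 CPM in DKO Treg libraries. Replicates of a genotype lay close together there, and the log2 fold change was -1.27 ± 0.24 (SE, adjusted p = 0.0222), 2.41-fold lower. This call too was lost with library totals, with a filter on low counts, with a robust prior (adjusted p = 0.0553) and without each of WT Treg replicates 1 and 2, DKO Treg replicate 1 and WT CD4+Foxp3- replicates 1 and 2, in which fits the log2 fold change stayed between -1.33 and -1.08. CD4+Foxp3- cells held 142, 148 and 148 CPM in WT against 116, 53.3 and 124 CPM in DKO mLN, all DKO values under the WT values, with a log2 fold change of -0.58 ± 0.35 (SE, adjusted p = 0.417). Between cell types the difference was large, Treg over CD4+Foxp3- cells giving -2.36 ± 0.38 (SE, adjusted p = 0.00102) in WT mLN, -3.06 in DKO mLN, -2.30 in WT and -2.83 in DKO spleen and pLNs.

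**Figure D3:**
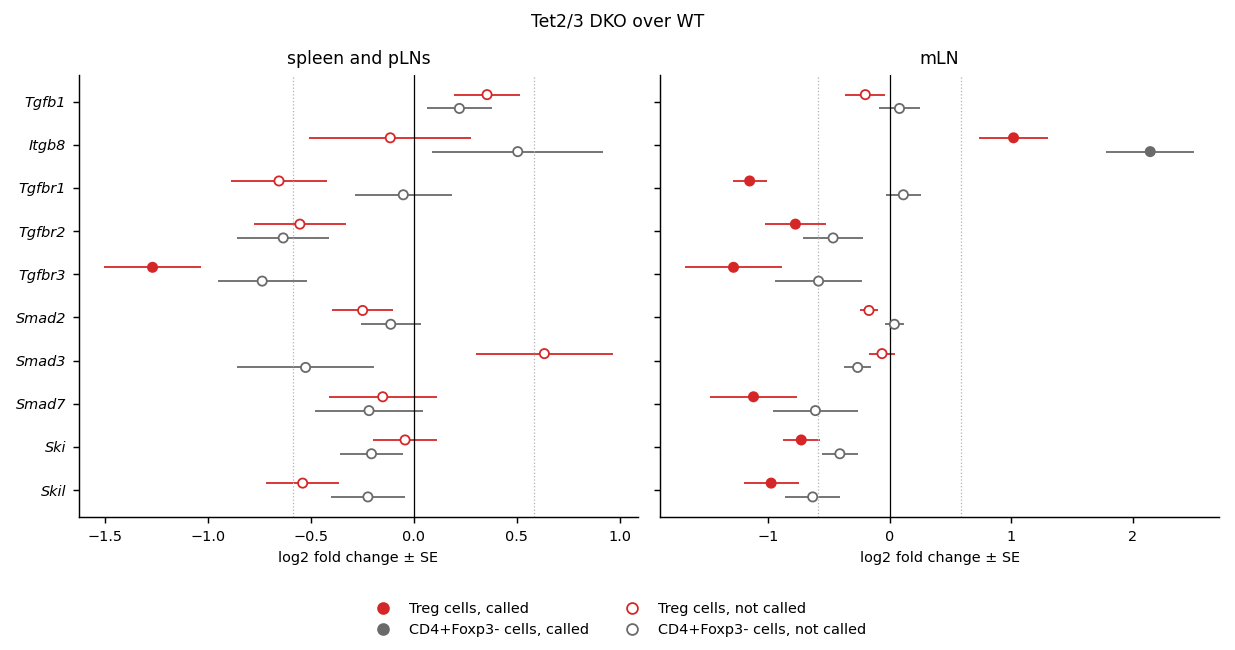
Log2 fold change of DKO over WT with its SE for the 10 genes in Treg cells (red) and CD4+Foxp3- cells (grey), spleen and pLNs left and mLN right, each panel with its own scale. Filled points passed the test, open points did not, and dotted lines mark 1.5-fold; 7 of the 10 are filled for Treg cells of mLN and 1, Tgfbr3, for those of spleen and pLNs.

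The receptor-regulated SMAD genes did not pass the test between genotypes in the reported fits. Smad2 (chr18:76401234-76465385, plus strand) had 64.4, 66.5 and 67.9 CPM in WT compared with 57.9, 58.4 and 60.6 CPM in DKO Treg libraries of mLN. The DKO values all lay under the WT values, by a log2 fold change of only -0.17 ± 0.08 (SE, adjusted p = 0.141). Smad3 (chr9:63494574-63605801, minus strand) had 109, 133 and 125 CPM in WT against 106, 132 and 114 CPM in DKO Treg libraries of mLN, and the groups overlapped (log2 fold change -0.06 ± 0.11 SE, adjusted p = 0.743). In Treg cells of mLN Smad2 was 1.12-fold and Smad3 1.04-fold lower in DKO, neither of them called, while the 3 receptor genes were 1.71- to 2.43-fold lower. The DKO libraries numbered 1 were extreme for Smad3 in spleen and pLNs: DKO Treg replicate 1 had 174 CPM and DKO CD4+Foxp3- replicate 1 had 40.3 CPM, while the other 6 libraries lay between 91.3 and 110.0 CPM. Its log2 fold change in Treg cells was 0.63 ± 0.33 (SE, adjusted p = 0.306), and 0.26 to 0.92 over the other settings and the fits with libraries left out. Between cell types Smad2 differed in DKO mLN by a log2 fold change of -0.29 ± 0.08 (SE, adjusted p = 0.0172), which passed the p threshold and missed the 1.5-fold one.

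Smad7 (chr18:75527183-75555589, plus strand), the inhibitory SMAD that TGF-beta itself induces, fell in DKO Treg cells of mLN. It had 86.7, 91.8 and 124 CPM in WT compared with 41.1, 31.8 and 66.8 CPM in DKO libraries. The groups did not overlap, DKO replicate 2 was the lowest, and the log2 fold change was -1.12 ± 0.36 (SE, adjusted p = 0.0426). The call was lost with library totals (adjusted p = 0.0682), with a robust prior and without each of 8 single libraries, namely all 6 WT libraries and DKO Treg replicates 1 and 2 (adjusted p up to 0.151). CD4+Foxp3- cells of mLN held 141, 142 and 174 CPM in WT against 104, 44.2 and 152 CPM in DKO, and replicate 2 was again the low one among DKO libraries. Treg over CD4+Foxp3- cells of mLN gave Smad7 a log2 fold change of -0.59 ± 0.35 (SE, adjusted p = 0.311) in WT, called with genotype and replicate number as a block (adjusted p = 0.0168), and of -1.10 ± 0.36 (SE, adjusted p = 0.0483) in DKO. The DKO call was lost with library totals, a filter on low counts, a robust prior and these 2 groups alone, and without each of 10 single libraries, namely all 6 WT libraries, DKO Treg replicates 1 and 2 and DKO CD4+Foxp3- replicates 1 and 3 (adjusted p up to 0.225). All 8 libraries of spleen and pLNs lay between 25.2 and 49.5 CPM, under the 86.7 CPM of the lowest WT Treg library of mLN, and genotypes overlapped in both cell types; levels of both tables were normalized apart, so this step between tissues has no test.

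The co-repressor genes Ski (chr4:154528184-154596701, minus strand) and Skil (chr3:30993980-31021499, plus strand) fell together in DKO Treg cells of mLN. Ski had 333, 375 and 416 CPM in WT compared with 263, 177 and 239.8 CPM in DKO libraries. No DKO value reached the lowest WT value, and the log2 fold change was -0.73 ± 0.15 (SE, adjusted p = 0.00533). Without DKO Treg replicate 2 the log2 fold change was -0.57 (adjusted p = 0.0177), just under the 1.5-fold threshold. Skil had 227, 258 and 258 CPM in WT against 168, 88.8 and 122 CPM in DKO libraries, again without overlap. Its log2 fold change was -0.97 ± 0.23 (SE, adjusted p = 0.00996), called under all 7 other settings and in all 13 fits with libraries left out. In CD4+Foxp3- cells of mLN Ski had 348, 380.3 and 434 CPM in WT compared with 305, 245 and 326 CPM in DKO, and Skil had 152, 177 and 186 CPM in WT against 127, 72.6 and 132 CPM in DKO. Each DKO library was under each WT library for both genes, and neither passed the test (adjusted p = 0.159 for Ski and 0.149 for Skil). For Ski, spleen and pLNs gave 192 and 191 CPM in WT compared with 196 and 175 CPM in DKO Treg cells, which overlapped. Skil had 181 and 174 CPM and 103 and 141 CPM, DKO under WT by a log2 fold change of -0.54 ± 0.18 (SE, adjusted p = 0.121), which did not pass. With other settings or libraries left out this log2 fold change of Skil lay between -0.79 and -0.32.

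**Figure D4:**
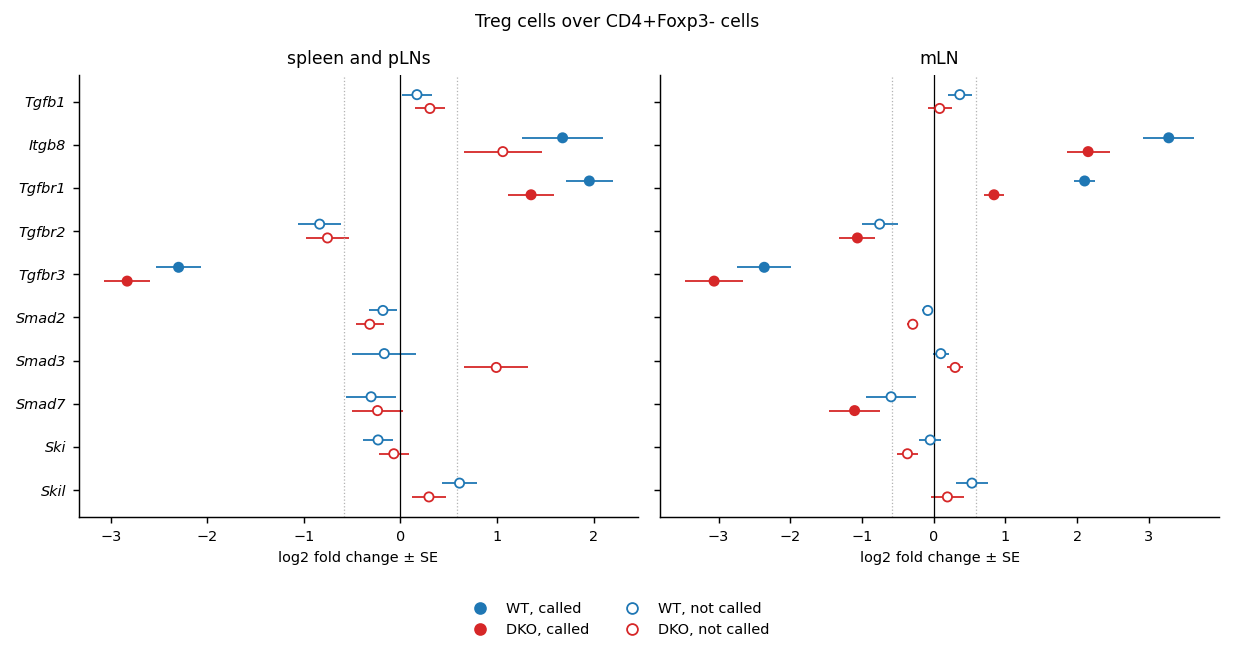
Log2 fold change of Treg over CD4+Foxp3- cells with its SE for the 10 genes in WT (blue) and DKO (red), spleen and pLNs left and mLN right, each panel with its own scale. Filled points passed the test and dotted lines mark 1.5-fold; Tgfbr1 is on the higher and Tgfbr3 on the lower side in all 4, and Tgfbr1 lies nearer 0 in DKO than in WT mLN.

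Beyond the 10, 43 further genes of the pathway were taken from lists written from general knowledge. All 43 were in the mLN table, and 3 were higher and 8 lower in DKO than in WT Treg cells of mLN, where 8.50% of all genes were called higher and 3.43% lower. The median log2 fold change of the 43 was -0.18. Among those that hold or activate the ligand, Lrrc32, which encodes GARP, the anchor of latent TGF-beta on Treg cells, had 89.0, 143 and 151 CPM in WT against 43.2, 34.9 and 79.8 CPM in DKO Treg libraries. All DKO values were lower, by a log2 fold change of -1.28 ± 0.26 (SE, adjusted p = 0.00464). Ltbp3, a latent TGF-beta binding protein, rose from 5, 1 and 2 counts in WT to 184, 68 and 66 counts in DKO Treg libraries (adjusted p = 0.00159). The ligand Tgfb3 rose from 0.986, 1.16 and 0.590 CPM to 3.28, 3.38 and 6.96 CPM (log2 fold change 2.28 ± 0.50 SE, adjusted p = 0.00744). Both were also called higher in DKO CD4+Foxp3- cells of mLN, as were Itgav, Itgb5 and Acvr1, and Sik1 was called lower there, 5 higher and 1 lower of 43 where 3.12% of all genes were called higher and 0.304% lower. The alphaV chain that pairs with beta8, Itgav, had 21.0, 22.7 and 22.8 CPM in WT compared with 25.6, 41.0 and 38.6 CPM in DKO CD4+Foxp3- libraries. In Treg libraries Itgav had 51.3, 59.5 and 55.7 CPM in WT against 73.9, 55.1 and 67.7 CPM in DKO, which overlapped. Itgb5 had 0.255, 0.338 and 0.399 CPM in WT CD4+Foxp3- libraries and 57.7 CPM in DKO CD4+Foxp3- replicate 2, against 1.33 and 0.795 CPM in the other DKO ones.

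Several genes that TGF-beta is known to induce were lower in DKO Treg cells of mLN. Of 7 such target genes in T cells, 4 were called lower, Itgae, Pmepa1, Ldlrad4 and Sik1, and 3 did not pass, Foxp3, Tgif1 and Tgfbi. The share called lower over all genes was 3.43%, and Pmepa1, Ldlrad4 and Sik1 also stand in the list of SMAD regulators. Itgae, which encodes the alpha chain of CD103, had 332, 389 and 308 CPM in WT compared with 106, 98.5 and 137 CPM in DKO Treg libraries. No DKO library reached the lowest WT library, and the log2 fold change was -1.59 ± 0.42 (SE, adjusted p = 0.0177). Pmepa1 and Ldlrad4, both of which bind SMAD2 and SMAD3 and damp the signal, fell by log2 values of 1.02 and 0.77 (adjusted p = 0.0086 and 0.00241). The kinase gene Sik1 had 38.7, 50.4 and 48.1 CPM in WT against 14.1, 26.9 and 20.2 CPM in DKO Treg libraries (log2 fold change -1.16 ± 0.25 SE, adjusted p = 0.00655). The table of spleen and pLNs held 42 of the 43, and 0 were called between WT and DKO Treg cells by edgeR, against 1.14% of all genes called higher and 0.605% lower, where 13 had an unadjusted p under 0.05. Itgae stood at 197 and 195 CPM in WT compared with 312 and 201 CPM in DKO Treg libraries of spleen and pLNs, and the difference between the tissues was not tested. By flow cytometry of spleen and pLNs the study reported a higher CD103 level or more CD103+ cells in DKO Treg cells, mainly in spleen.

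Among the other receptors and regulators, Acvr1 was called higher and Acvr1b, Eng and Smurf2 lower in DKO Treg cells of mLN. Acvr1b, a type I receptor for activins, had 32.1, 34.3 and 33.0 CPM in WT against 18.0, 16.1 and 23.5 CPM in DKO libraries (log2 fold change -0.79 ± 0.20 SE, adjusted p = 0.0158). Smurf2, a ubiquitin ligase that SMAD7 brings to the type I receptor, had 113, 113 and 114 CPM in WT compared with 70.5, 40.0 and 80.2 CPM in DKO libraries. No DKO value of Acvr1b or Smurf2 reached the WT values, and the log2 fold change of Smurf2 was -0.84 ± 0.27 (SE, adjusted p = 0.0443). Acvr1, a type I receptor for bone morphogenetic proteins, rose from 1.64, 1.16 and 1.48 CPM to 5.19, 3.88 and 4.11 CPM (log2 fold change 1.62 ± 0.41 SE, adjusted p = 0.0145). The co-receptor gene Eng stood at no more than 1.08 CPM in any of the 6 Treg libraries of mLN. Smad4, the partner of SMAD2 and SMAD3, had 101, 106 and 118 CPM in WT against 79.1, 86.0 and 95.1 CPM in DKO Treg libraries and passed the p threshold but missed the 1.5-fold one (log2 fold change -0.32 ± 0.10 SE, adjusted p = 0.0304).

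Between cell types of WT mLN, 11 of the 43 were higher and 5 lower in Treg cells, where 6.91% of all genes were called higher and 3.14% lower. Higher were Lrrc32, Itgav, Itgb1, Furin, which cleaves the TGF-beta precursor, Ltbp1, Ltbp4, Tgif1, Pmepa1, Ldlrad4, Itgae and Foxp3, whose gene drives the YFP used for the sort, so that its place among the 11 was fixed by the design. Lower were Nrros, Itgb3, Acvrl1, Acvr1b and Ppp1r15a. Itgb1 had 278, 273 and 281 CPM in WT Treg and 139, 162 and 152 CPM in WT CD4+Foxp3- libraries (log2 fold change 0.88 ± 0.10 SE, adjusted p = 7.41e-05), and 218, 223 and 192 CPM and 185, 209 and 237 CPM in DKO, where both cell types overlapped. Lrrc32 had at most 1 count in each WT CD4+Foxp3- library of mLN, so no fold is given for it. Acvrl1, a type I receptor, showed the reverse pattern, with 11.5, 9.35 and 10.2 CPM in WT Treg and 63.7, 70.6 and 68.5 CPM in WT CD4+Foxp3- libraries (log2 fold change -2.70 ± 0.45 SE, adjusted p = 0.00128). In spleen and pLNs 6 of 42 were higher in WT Treg cells, Lrrc32, Tgif1, Pmepa1, Ldlrad4, Itgae and again Foxp3, the gene behind the sort, and 1, Acvrl1, was lower, against 2.48% and 1.52% of all genes. Ltbp1 was called in mLN from 3, 3 and 5 counts in WT Treg and 0 in WT CD4+Foxp3- libraries, all at or close to the floor of 3 counts.

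**Figure D5:**
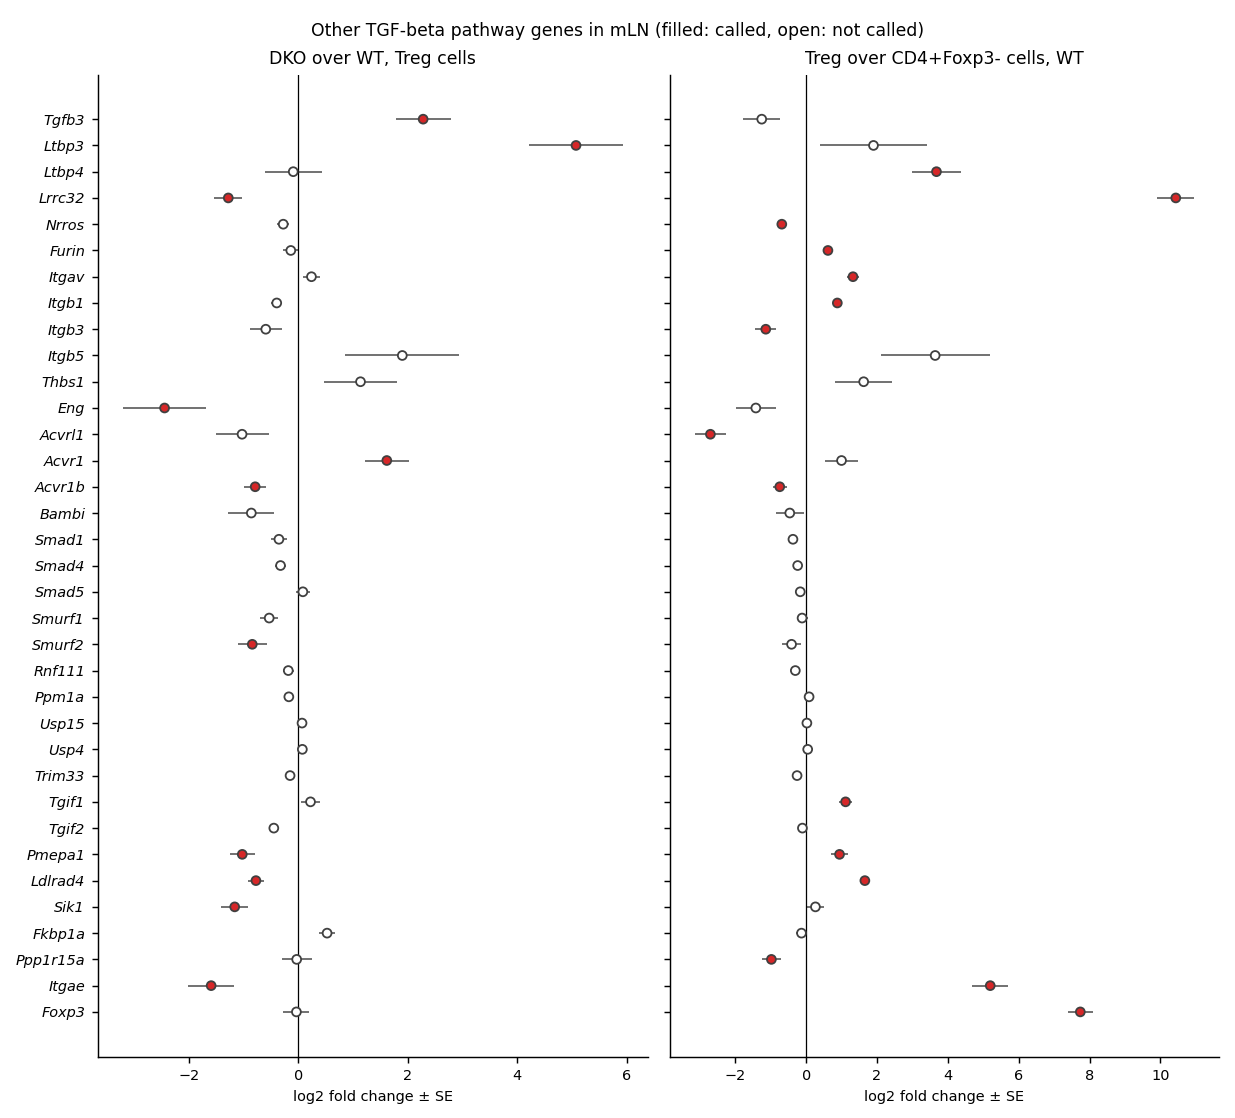
Log2 fold change with its SE for 35 of the 43 further pathway genes in mLN, those that reached 1 CPM in at least 1 library, for DKO over WT Treg cells (left) and WT Treg over WT CD4+Foxp3- cells (right), each panel with its own scale. Filled points passed the test; Lrrc32, Pmepa1, Ldlrad4 and Itgae are filled on the higher side at right and on the lower side at left.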

How the data were processed

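RNA was sequenced from sorted CD4+YFP+ Treg and CD4+YFP- T cells with a stranded mRNA kit. Per the study's methods, the authors aligned reads to mm9 with TopHat2 (version 2.1.1, multiply mapped reads limited to 1 place), counted them per RefSeq gene and strand with featureCounts of Subread (version 1.4.3-p1), and deposited raw counts and TPM, 1 pair of tables for spleen with pLNs and another for mLN. How the authors computed the deposited TPM is not given in the sources used here. The counts were fitted with edgeR (version 4.0.16) by the quasi-likelihood test after TMM, each table on its own with its 4 groups in 1 fit, over genes with at least 1 count in all (16357 and 16784 genes), with Benjamini-Hochberg adjustment. Calls needed an adjusted p no higher than 0.05 with a change of at least 1.5-fold, and for the interaction at the adjusted p alone. Standard errors (SE) were derived from the log2 fold change and its F statistic. Library totals and the floor of 3 counts cover counting error only. The script was tested on simulated data. DESeq2 (version 1.42.0), other scalings, a filter on low counts, a robust prior, replicate blocks and leaving out libraries were alternatives.

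Named with values were the 10 genes, pathway genes called between WT and DKO Treg or between WT Treg and WT CD4+Foxp3- cells, the 3 genes most like Itgb8, and Tet2, Foxp3 and markers as checks. Itgav, Itgb5, Smad4 and the levels in other groups were chosen after their values were seen. The 10 genes and all lists were chosen with earlier results of these data known. One listed gene is not reported here and was left out of the counts of its lists. Ldlrad4 is D18Ertd653e in the deposited table of spleen and pLNs. Gene positions come from GENCODE M1 on NCBIM37, the assembly of mm9.

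Replicate numbers come from the sample titles. In mLN, Treg and CD4+Foxp3- libraries of 1 genotype and number deviated together over 11175 genes (correlations 0.17, 0.17 and 0.18 in WT and 0.11, 0.37 and 0.39 in DKO). WT and DKO Treg libraries of 1 number gave -0.02 to 0.09, but WT and DKO CD4+Foxp3- libraries of 1 number gave 0.11, 0.11 and 0.02. DKO CD4+Foxp3- replicate 1 also correlated more with DKO Treg replicate 3 (0.16) than with DKO Treg replicate 1. Labels do not say that a number is a mouse. The reported fits therefore hold no replicate block, and a block by genotype and number was an alternative only.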

Additional observations from a re-analysis of the deposited data

Results flagged for a closer look

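Tgfbr1 was flagged because the effect of genotype differed between cell types in mLN. The log2 fold change of DKO over WT was -1.15 for Treg and 0.11 for CD4+Foxp3- cells, a difference of -1.26 ± 0.20 (SE, 3 libraries per group, adjusted p = 0.0187 by edgeR's quasi-likelihood test over all genes).

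Itgb1, a pathway gene outside the 10, was flagged for the same reason. It had 278, 273 and 281 CPM in WT Treg, 218, 223 and 192 CPM in DKO Treg, 139, 162 and 152 CPM in WT CD4+Foxp3- and 185, 209 and 237 CPM in DKO CD4+Foxp3- libraries of mLN, lower in all 3 DKO libraries of Treg cells and higher in all 3 of CD4+Foxp3- cells. The difference of effects was -0.88 ± 0.14 (SE, adjusted p = 0.0187). For Itgb1, spleen and pLNs gave 801 to 828 CPM in WT and 479 to 761 CPM in DKO CD4+Foxp3- libraries, lower in both DKO libraries, and 887 to 934 CPM in WT and 389.97 to 613 CPM in DKO Treg libraries, and the interaction was not called in that tissue (adjusted p = 0.998).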

How the results depend on the processing

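Over all genes the background moved widely. The 285 calls in DKO against WT Treg cells of spleen and pLNs were 46 with library totals, 24 with a filter on low counts, 114 with a robust prior, 648 with DESeq2, 1256 with these 2 groups alone and 4 to 2028 with 1 library left out, and the 134 in CD4+Foxp3- cells were 1, 1, 19, 376, 1 and 1 to 2751. In CD4+Foxp3- cells of mLN the 575 calls over all genes were 323 with a robust prior, 929 with DESeq2, 2 with these 2 groups alone and 57 to 1453 with 1 library left out. The 47 of the mLN interaction were 409 with DESeq2, 118 with genotype and replicate number as a block, 538 without both DKO libraries numbered 2 and 9 to 462 with 1 library left out. Between cell types of spleen and pLNs the counts of 654 in WT and 617 in DKO were 2060 and 190 with 2 groups alone and 144 to 1407 and 185 to 1586 with 1 library left out, and those of mLN, 1687 and 1885, were 2544 and 906 with 2 groups alone and 1149 to 2148 and 1520 to 2934 with 1 left out. The shares of all genes printed beside the members move with these counts. The counts of members called were as follows under the settings that moved them by over 1.5 times. In DKO against WT Treg cells of mLN the count of 7 members was 4 with library totals and 4 with a robust prior, and 3 to 7 with 1 library left out. In spleen and pLNs the count of 1 was 0 with library totals, 0 with a filter on low counts, 0 with a robust prior and 0 to 3 with 1 library left out. In CD4+Foxp3- cells of mLN 1 became 0 with these 2 groups alone and 0 to 2 with 1 library left out, and in those of spleen and pLNs 0 became 0 to 5, the 5 without DKO CD4+Foxp3- replicate 2. For Treg against CD4+Foxp3- cells, the 3 members in WT spleen and pLNs were 5 with DESeq2, 5 with 2 groups alone, 5 without both DKO libraries numbered 1 and 2 to 5 with 1 left out. The 2 in DKO there were 1 with the genotype and replicate number as a block, 1 with 2 groups alone, 5 without both DKO libraries numbered 1 and 2 to 5 with 1 left out. In WT mLN 3 became 5 with that block, 5 with 2 groups alone, 5 without both DKO libraries numbered 2 and 3 to 4 with 1 left out, and in DKO mLN 5 became 3 with 2 groups alone and 4 to 5 with 1 left out. The interaction count was 0 in spleen and pLNs, 1 without both DKO libraries numbered 1 and 0 to 2 with 1 left out, and 1 in mLN, 2 without both DKO libraries numbered 2 and 0 to 2 with 1 left out. Leaving out both DKO libraries of a number was chosen after seeing the data. The causes were not tested. In spleen and pLNs, with 2 pairs a genotype (correlation 0.21 in WT and 0.34 in DKO), both DKO cell types came from the same littermates but the labels tie no number to a mouse, and the block ended the calls of Itgb8 in WT and of Tgfbr1 in DKO between cell types. Libraries of 1 number also correlated between WT and DKO there, by 0.19 for Treg and 0.22 for CD4+Foxp3- cells. In mLN the block changed no call of a member other than Tgfbr2 and Smad7 between WT cell types.

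No member whose log2 fold change turned sign was called in the reported fit or in the fit that turned it. In spleen and pLNs some were called in other fits with a library left out: Itgb8, Smad3 and Smad7 in CD4+Foxp3- cells and the Itgb8 interaction without DKO CD4+Foxp3- replicate 2, and Smad7 between DKO cell types without DKO CD4+Foxp3- replicate 1 and without both DKO libraries numbered 1. With library totals these were, in spleen and pLNs, Itgb8 0.065, Smad7 0.041 and Ski 0.15 in DKO against WT Treg cells, Tgfbr1 0.11 and Smad2 0.048 in CD4+Foxp3- cells and Ski 0.017 between DKO cell types, and in mLN Smad3 0.049 in Treg cells and Ski 0.0092 between WT cell types. With 1 library left out they lay, in mLN, at Smad3 from -0.15 to 0.0073 in Treg cells, Tgfb1 from -0.19 to 0.26 and Smad2 from -0.0061 to 0.11 in CD4+Foxp3- cells, Ski from -0.13 to 0.042 between WT cell types, and Tgfb1 from -0.11 to 0.33 and Skil from -0.071 to 0.39 between DKO cell types. For spleen and pLNs they lay at Itgb8 from -0.33 to 0.14, Smad7 from -0.33 to 0.0043 and Ski from -0.13 to 0.036 in Treg cells, Itgb8 from -0.63 to 1.12 and Smad7 from -0.78 to 0.19 in CD4+Foxp3- cells, Smad7 from -0.65 to 0.33 and Ski from -0.16 to 0.029 between DKO cell types, and Tgfb1 from -0.012 to 0.26, Itgb8 from -1.23 to 0.52, Tgfbr2 from -0.26 to 0.53 and Smad7 from -0.34 to 0.63 for the interaction. Without both DKO libraries numbered 1 they were Itgb8 -0.63, Smad3 0.0034 and Smad7 0.20 in CD4+Foxp3- cells and Itgb8 0.61, Tgfbr2 -0.21, Smad7 -0.52 and Ski -0.015 for the interaction, and without both numbered 2 in mLN Tgfb1 -0.21 in CD4+Foxp3- cells.

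With 2 or 3 libraries a group, the biological coefficient of variation of 21.6% in spleen and pLNs and of 17.7% in mLN limits what could be called, and 3 counts were worth up to 0.241 and 0.299 CPM.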
